A study of Mus musculus with 22 samples.

Results

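Between *Snrpn* and *Ndn* on mouse chromosome 7 lie transcripts with no protein product. The values given here are for 4 of them, the long noncoding RNAs *A230006K03Rik*, *A230057D06Rik* and *A330076H08Rik* and the microRNA entry *Mir344-2*. They were taken by name from the count tables, where they are 4 of 55409 genes in the PWS-cr table and 4 of 55406 in the PWS-IC table. The mm10 annotation places 38 entries in the 2206.3 kb between *Snrpn* and *Ndn*, so 34 others share the interval with them. *Snrpn* is transcribed from the minus strand, as are all 4, and each lies on its upstream side.

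The Prader-Willi syndrome (PWS) interval is imprinted, so that most of its genes are active on the paternal copy and silent on the maternal copy. An imprinting centre at the *Snrpn* promoter keeps the paternal copy active over a long distance. A microRNA is cut from a hairpin in a longer primary transcript, and its seed, the bases near its 5′ end, largely decides which messenger RNAs it pairs with. The *Mir344* family has most of its hairpins in this interval.

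Polyadenylated RNA from whole brains at postnatal day 0 was sequenced in 2 mouse models and the wild-type (WT) littermates of each, and a column was present for 20 of the 22 libraries with labels. Pups called PWS-cr (HET PWS-Cr) are heterozygous for a deletion of the critical interval, which removes *Snord116* and most exons of *Ipw*, carried by the line B6(Cg)-Snord116tm1Uta/J. They gave 6 libraries from 4 litters, 3 female and 3 male, beside 5 WT libraries from 3 of these litters, 2 female and 3 male. PWS-IC pups (HET PWS-ICdel) are heterozygous for a deletion of the imprinting centre on the paternal chromosome (m+/p-) and gave 4 libraries labelled female from 2 litters, beside 5 WT libraries, 1 female and 4 male. In both models the deletion is a germline one on the paternal chromosome and the maternal copy is intact. No pup received a treatment. Each library is 1 pup. The strain of the sequenced pups is not given in the sources used here.

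Total counts ranged from 45798407 to 62103143. In 18 libraries the sex-linked genes matched the labelled sex, with 51341 to 133702 counts of *Xist* in females and 75 to 238 in males. Labelled as a PWS-IC female, 1_3_IC had 64 counts of *Xist* and 7568 of the Y-linked *Ddx3y*, *Eif2s3y*, *Kdm5d* and *Uty* together. Labelled as a WT male, 1_7_IC had 124574 and 18. Both go against their labels, so results for PWS-IC are given over all 9 libraries as labelled and over the 7 libraries without these 2. Markers of neurons were at like levels in both genotypes (summed level 7530 to 8590 CPM, counts scaled to the library total, in 3 PWS-IC and 7630 to 7980 CPM in 4 WT libraries), and 0 of 8 were called. The red-cell list was higher in those PWS-IC libraries (439 to 674 CPM against 138 to 327 CPM, 6 of 6 genes positive, 1 of 6 called). Over these 7 libraries, 0.242% of 21913 tested genes were called. The oligodendrocyte lineage list overlapped (247 to 288 CPM against 272 to 404 CPM, 6 of 6 negative, 0 called). So did the astrocyte and radial glia list (990 to 1140 CPM against 1070 to 1260 CPM, 1 positive, 5 negative, 0 called). The spinal cord list (0.661 to 19.6 CPM against 0.0372 to 19.1 CPM, 3 tested, 3 negative, 0 called) and the muscle and cartilage list (22.5 to 26.9 CPM against 18.9 to 23.6 CPM, 3 positive, 2 negative, 0 called) overlapped too. Their part in the results was not tested.

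In mm10, *A230006K03Rik* (ENSMUSG00000068151) spans chr7:61127996-61311721 with 1449 exon bases, and 47 of them are shared with *Gm38451* on the same strand. *A230057D06Rik* (ENSMUSG00000109394) spans chr7:61704519-61928690 with 11357 exon bases, and 7 *Mir344* hairpins lie in its introns. *A330076H08Rik* (ENSMUSG00000109321) spans chr7:61930137-61982358 with 4448 exon bases, of which 70 are also annotated as the *Mir344g* hairpin. *Mir344-2* (ENSMUSG00000093187) is the hairpin at chr7:61940027-61940106, 80 bases long, in an intron of *A330076H08Rik*, with the nearest exons 8534 and 3795 bases away. Mature microRNAs are too short for these libraries, so counts on *Mir344-2* come from longer polyadenylated RNA that covers the hairpin.

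The mature microRNAs of *Mir344-2* are shown because they bear on whether its counts can be told from those of other hairpins. RefSeq (GRCm38.p6) lists both arms under *Mir344-2* and under *Mir344*, with the same letters. The seed, bases 2 to 8, is in capitals, and *Mir344c* is the closest hairpin in sequence after *Mir344*.

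mmu-miR-344-5p (*Mir344* and *Mir344-2*): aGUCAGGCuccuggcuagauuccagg
mmu-miR-344c-5p (*Mir344c*): aGUCAGGCugcuggcuagaguac
mmu-miR-344-3p (*Mir344* and *Mir344-2*): uGAUCUAGccaaagccugacugu
mmu-miR-344c-3p (*Mir344c*): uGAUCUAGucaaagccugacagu

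The seed GUCAGGC of the 5p arm was shared by 6 of 19 distinct mature microRNAs of the 13 *Mir344* hairpins, and GAUCUAG of the 3p arm by 2. The *Mir344-2* hairpin matched that of *Mir344* at 74 of 75 aligned bases (98.7%) and that of *Mir344c* at 67 of 78 (85.9%). Per the study's methods, reads with several alignments were placed in random order. How a read that fits both hairpins was counted is not given, so the split of counts between *Mir344-2* and *Mir344* is uncertain.

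The windows at the outermost RefSeq starts of the 3 long transcripts are shown because the 3 changed together, with that of *B230209E15Rik*, a neighbouring long noncoding RNA. Each runs from 250 bases before the start to 50 after it, on the minus strand. The words TTTGAGATCT and TCTCCTGATTGGT, found as stretches that the windows of *A230006K03Rik* and *A330076H08Rik* share, are in capitals.

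A230006K03Rik, chr7:61311600-61311899: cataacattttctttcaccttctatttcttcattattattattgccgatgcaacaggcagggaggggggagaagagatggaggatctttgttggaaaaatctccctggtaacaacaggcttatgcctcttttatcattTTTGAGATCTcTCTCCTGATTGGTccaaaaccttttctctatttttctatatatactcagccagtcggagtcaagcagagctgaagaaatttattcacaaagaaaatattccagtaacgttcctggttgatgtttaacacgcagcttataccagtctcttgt
B230209E15Rik, chr7:61615278-61615577: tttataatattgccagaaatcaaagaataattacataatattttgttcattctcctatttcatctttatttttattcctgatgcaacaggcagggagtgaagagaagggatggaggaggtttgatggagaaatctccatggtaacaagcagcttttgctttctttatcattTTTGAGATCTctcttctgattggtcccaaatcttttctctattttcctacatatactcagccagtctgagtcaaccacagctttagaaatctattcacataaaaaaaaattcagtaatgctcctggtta
A230057D06Rik, chr7:61927525-61927824: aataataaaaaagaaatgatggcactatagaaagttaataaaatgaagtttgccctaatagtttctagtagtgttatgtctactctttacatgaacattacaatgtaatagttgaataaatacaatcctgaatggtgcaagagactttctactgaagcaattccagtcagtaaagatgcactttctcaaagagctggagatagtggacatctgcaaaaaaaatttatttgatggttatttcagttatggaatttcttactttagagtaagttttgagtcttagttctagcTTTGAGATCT
A330076H08Rik, chr7:61982306-61982605: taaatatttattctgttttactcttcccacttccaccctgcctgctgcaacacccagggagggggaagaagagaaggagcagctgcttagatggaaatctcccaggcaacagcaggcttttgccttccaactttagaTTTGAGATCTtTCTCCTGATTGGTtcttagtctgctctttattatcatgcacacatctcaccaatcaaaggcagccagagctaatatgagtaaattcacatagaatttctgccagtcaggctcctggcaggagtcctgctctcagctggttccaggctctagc

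The window of *A230006K03Rik* aligned with that of *A330076H08Rik* over 262 columns at 69.1% identity and with that of *B230209E15Rik* over 266 columns at 82.7%. It also aligned with *Gm29729*, a RefSeq noncoding RNA of the same interval with no row of that name in the count tables, over 293 columns at 79.5%. The window of *A230057D06Rik* aligned with none of them over more than 50 columns. Counted on the strand of the gene, TCTCCTGATTGGT began 101 bases before the start of *A230006K03Rik* and 102 before that of *A330076H08Rik*, and TTTGAGATCT 112 and 113 bases before. TCTCCTGATTGGT was in 16 of 32851 promoter windows of the same length (0.0487%) and TTTGAGATCT in 31 (0.0944%), searched on both strands. A further shared word of 11 bases, CAGGGAGGGGG, was in 84 (0.256%) and is not marked. The words were picked from these windows, so how often such sharing arises by chance was not tested. The window of *Gm29729* held both marked words. TTTGAGATCT was also in the windows of *B230209E15Rik* and *A230057D06Rik*, in the latter as its last bases, after the start. TCTCCTGATTGGT was in neither as an exact match. In the window of *B230209E15Rik* the same place after TTTGAGATCT reads tcttctgattggt, with a T instead of a C. The windows at the outermost start of *Snrpn* and at *Ndn* held none of these words. CpG dinucleotides, the sites of DNA methylation, numbered 4 in the window of *A230006K03Rik* and 0 in those of *A230057D06Rik* and *A330076H08Rik*.

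In PWS-IC brains the 3 long transcripts were nearly absent, at 0.833% to 3.10% of the WT level over the 7 libraries. In PWS-cr brains they stood at 98.5% to 101% of the WT level. *Mir344-2* was also lower in PWS-IC, from few counts, and was near 0 in every library of the PWS-cr series, WT included. In bulk tissue, fewer cells of a type and less RNA per cell cannot be told apart.

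*A230057D06Rik* is the most counted of the 4. It had 2008, 2605, 3136 and 2721 counts in the 4 WT libraries of the PWS-IC series (1_1_IC, 1_5_IC, 4_3_IC and 4_6_IC) and 63, 97 and 99 in the 3 PWS-IC libraries (1_10_IC, 4_4_IC and 4_5_IC). The highest PWS-IC library lay far below the lowest WT library. After TMM scaling these were 47.2 ± 8.66 CPM (SD, n = 4) and 1.53 ± 0.326 CPM (SD, n = 3). The log2 fold change was -5.01 (SE 0.144, edgeR quasi-likelihood test with Benjamini-Hochberg adjustment, adjusted p = 4.36e-09). In that comparison 0.242% of 21913 tested genes were called, and 0.16% were called lower.

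*A330076H08Rik*, the host of the *Mir344-2* hairpin, had 636, 692, 988 and 752 counts in the 4 WT libraries and 16, 23 and 28 in the 3 PWS-IC libraries. Again no PWS-IC library came near a WT library. The levels were 13.8 ± 2.40 CPM (SD, n = 4) and 0.392 ± 0.0788 CPM (SD, n = 3). The log2 fold change was -5.18 (SE 0.145, edgeR, adjusted p = 4.36e-09), which leaves 2.75% of the WT level (95% interval 2.20% to 3.43%). For *A230057D06Rik* 3.10% was left (2.49% to 3.87%), so the intervals of these neighbours overlap.

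*A230006K03Rik*, the entry nearest to *Snrpn* of the 4, had 220, 271, 347 and 285 counts in the 4 WT libraries and 3, 1 and 3 in the 3 PWS-IC libraries. The PWS-IC libraries together held 7 counts against 1123. Pooled and divided by total counts, WT was 122 times higher (95% exact interval 59 to 304, counting error only). The log2 fold change was -6.91 (SE 0.284, edgeR, adjusted p = 1.11e-07), with 0.833% of the WT level left (0.540% to 1.29%). This interval lies below those of *A230057D06Rik* and *A330076H08Rik*; the difference between the genes was not tested. *A230006K03Rik* passed the filter of 10 counts in 4 libraries only through its WT libraries. Its share of the counts of the 3 long transcripts was 7.58% to 7.76% in WT and 0.826% to 3.66% in PWS-IC, without overlap.

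The differences held in both litters. In litter 1 of the PWS-IC series, without 1_3_IC and 1_7_IC, the log2 differences between PWS-IC and WT means were -5.37 for *A230006K03Rik*, -5.05 for *A230057D06Rik* and -5.08 for *A330076H08Rik*, from 1 and 2 libraries. In litter 4 they were -6.13, -4.93 and -5.00, from 2 and 2 libraries. These are on the scale of log2(CPM + 0.05), which understates the change of low genes. All 3 PWS-IC pups are female and 3 of the 4 WT pups male. The female WT library had 34.6 CPM of *A230057D06Rik* against 1.19 to 1.84 CPM in the 3 female PWS-IC libraries. With labelled sex in the model, the log2 fold changes were -6.52 for *A230006K03Rik*, -4.65 for *A230057D06Rik* and -5.01 for *A330076H08Rik*, each still called.

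Over all 9 libraries as labelled, none of the 4 was called. The log2 fold changes were -3.30 (SE 1.25) for *A230006K03Rik*, -2.72 (SE 1.18) for *A230057D06Rik*, -2.90 (SE 1.11) for *A330076H08Rik* and -3.67 (SE 0.910) for *Mir344-2*. The edgeR adjusted p was 0.565 for each, and 0.0% of 22367 genes were called, with 1840 at an unadjusted p under 0.05 and 1 called by DESeq2. The library labelled 1_7_IC had 57 counts of *A230057D06Rik*, fewer than any PWS-IC library, and 1_3_IC had 1024.

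**Figure D1:**
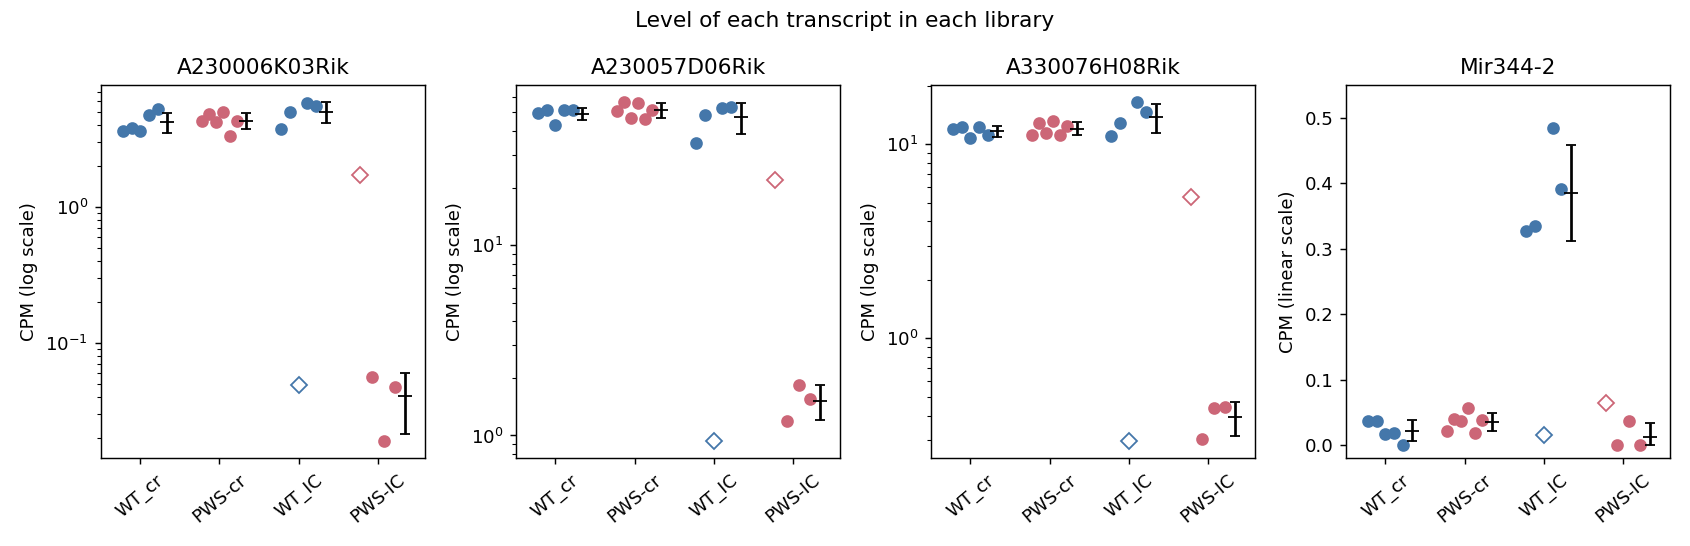
CPM after TMM scaling of each transcript in every library, on a log axis for the 3 long transcripts and a linear axis for Mir344-2, with WT in blue and mutants in red. Open diamonds mark 1_3_IC and 1_7_IC, and black bars give the mean and SD of the other libraries of a group. The 3 filled PWS-IC points lie far below every filled WT point for the long transcripts, while PWS-cr and its WT overlap.

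In the PWS-cr series the 3 long transcripts overlapped between genotypes. *A230057D06Rik* ranged from 46.3 to 56.8 CPM with a median of 51.2 in the 6 PWS-cr libraries, and had 49.6, 51.3, 42.8, 51.3 and 51.3 CPM in the 5 WT libraries. *A330076H08Rik* ranged from 11.1 to 13.2 CPM (median 11.9) in PWS-cr and had 11.9, 12.3, 10.7, 12.3 and 11.1 CPM in WT. *A230006K03Rik* ranged from 3.34 to 4.98 CPM (median 4.30) in PWS-cr and had 3.66, 3.84, 3.64, 4.76 and 5.27 CPM in WT. The ranges of the genotypes overlapped for each of the 3, with single libraries beyond the other genotype's range, such as the WT library at 42.8 CPM of *A230057D06Rik*.

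The log2 fold changes in PWS-cr were -0.02 for *A230006K03Rik* (SE 0.114, 95% interval -0.27 to 0.23), 0.01 for *A230057D06Rik* (SE 0.0689, -0.14 to 0.17) and 0.01 for *A330076H08Rik* (SE 0.0748, -0.16 to 0.17). As levels relative to WT, the intervals were 82.7% to 117%, 90.8% to 112% and 89.5% to 113%. edgeR called 0 of the 3, with 0.0135% of 22172 genes called in either direction, 0.00902% called lower, 459 genes at an unadjusted p under 0.05 and 7 genes called by DESeq2. Within litters the log2 differences had no common sign for *A230006K03Rik* (0.28, -0.16 and -0.21) and lay between -0.05 and 0.08 for the other long transcripts.

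The genotype effects of the 2 models differed for the long transcripts. In a fit over 18 libraries of both series, the effect in PWS-IC was lower than in PWS-cr by -6.88 (SE 0.299, edgeR, adjusted p = 3.35e-10) for *A230006K03Rik*, by -5.02 (SE 0.160, adjusted p = 4.16e-12) for *A230057D06Rik* and by -5.19 (SE 0.151, adjusted p = 1.13e-12) for *A330076H08Rik*, on the log2 scale. In this fit 0.182% of 23574 genes were called, and 0.14% were called lower. Over all 20 libraries as labelled, 0.0% of 23771 genes were called (1123 at an unadjusted p under 0.05, 3 by DESeq2). The differences there were -3.21, -2.69 and -2.85, each with an edgeR adjusted p of 0.836.

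**Figure D2:**
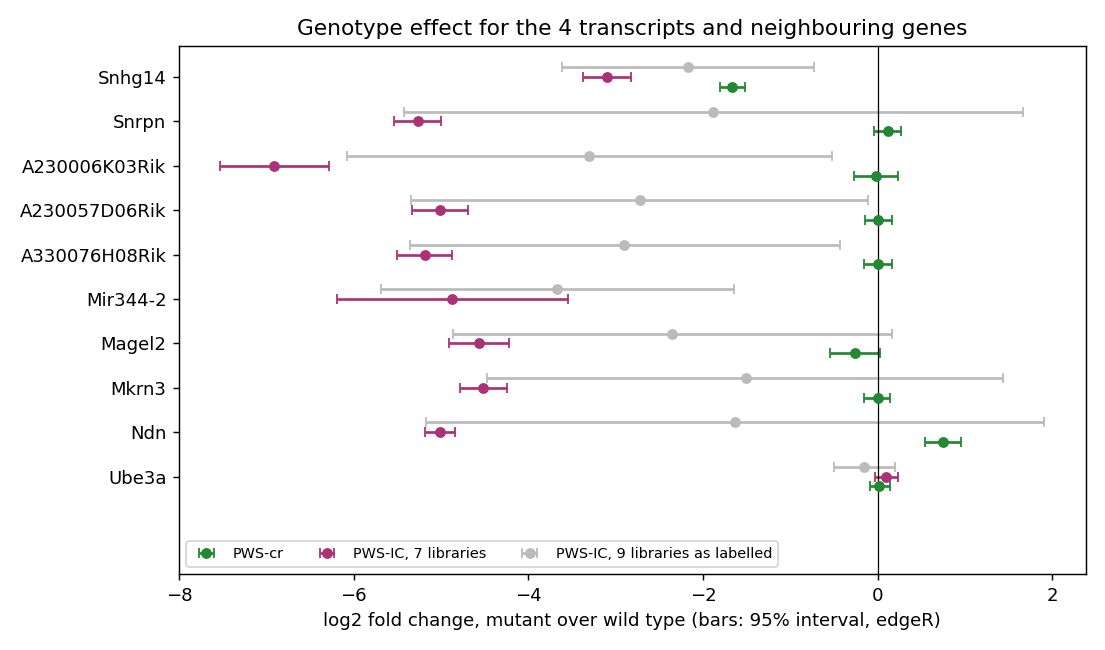
Log2 fold change of mutant over WT with its 95% interval from edgeR for the 4 transcripts and for neighbouring genes, in PWS-cr, in the 7 PWS-IC libraries and in all 9 as labelled. The 3 long transcripts sit at 0 in PWS-cr and between -6.91 and -5.01 in the 7 libraries, and Mir344-2 had too few counts for the PWS-cr fit.

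*Mir344-2* rested on few counts. It had 19, 18, 29 and 20 counts in the 4 WT libraries of the PWS-IC series and 0, 2 and 0 in the 3 PWS-IC libraries. WT and PWS-IC did not overlap. The log2 fold change was -4.87 (SE 0.600, edgeR, adjusted p = 0.00405), and the entry passed the filter only through its WT libraries. DESeq2 gave no adjusted p for it. Pooled over libraries, WT was 32.7 times higher (95% exact interval 8.78 to 274, counting error only, 86 counts against 2). In the PWS-cr series it had 1 to 3 counts in the 6 mutants (median 2) and 2, 2, 1, 1 and 0 in the WT libraries. The mean difference, PWS-cr minus WT, was 0.0133 CPM (exact permutation test, two-sided, p = 0.16, n = 6 and 5). This test took no account of litter. The difference of the 2 genotype effects was -5.11 (SE 1.07, edgeR, adjusted p = 0.0987) over 18 libraries and was not called.

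The WT libraries of the series differed for *Mir344-2* far more than for its host. Divided by total counts, *Mir344-2* was 17.0 times higher in the 4 WT libraries of the PWS-IC series than in the 5 of the PWS-cr series (95% exact interval 7.52 to 47.7, counting error only). For *A330076H08Rik* the same ratio was 1.19 (1.13 to 1.25), for *A230057D06Rik* 0.960 (0.935 to 0.985) and for *A230006K03Rik* 1.2 (1.11 to 1.31). Some other entries of the interval also had ratios above 1, while *Mir344c* had 0.747 (0.444 to 1.24). The share of all genes with such ratios was not counted. *Gm3257*, a processed pseudogene within the bounds of *A330076H08Rik* on the opposite strand, had 79 to 153 counts in WT of the PWS-IC series and 9 to 26 in WT of the PWS-cr series, a ratio of 6.28 (4.98 to 8). *Gm9801*, the long noncoding RNA nearest to *Ndn*, had 394 to 745 and 216 to 314, a ratio of 1.99 (1.86 to 2.13). *Ndn* itself had a ratio of 1.81 (1.80 to 1.83) and *Snrpn* 0.975 (0.964 to 0.986). Colony, litter and library batch cannot be told apart here, and the libraries are unstranded, so reads of overlapping genes on opposite strands cannot be separated.

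**Figure D3:**
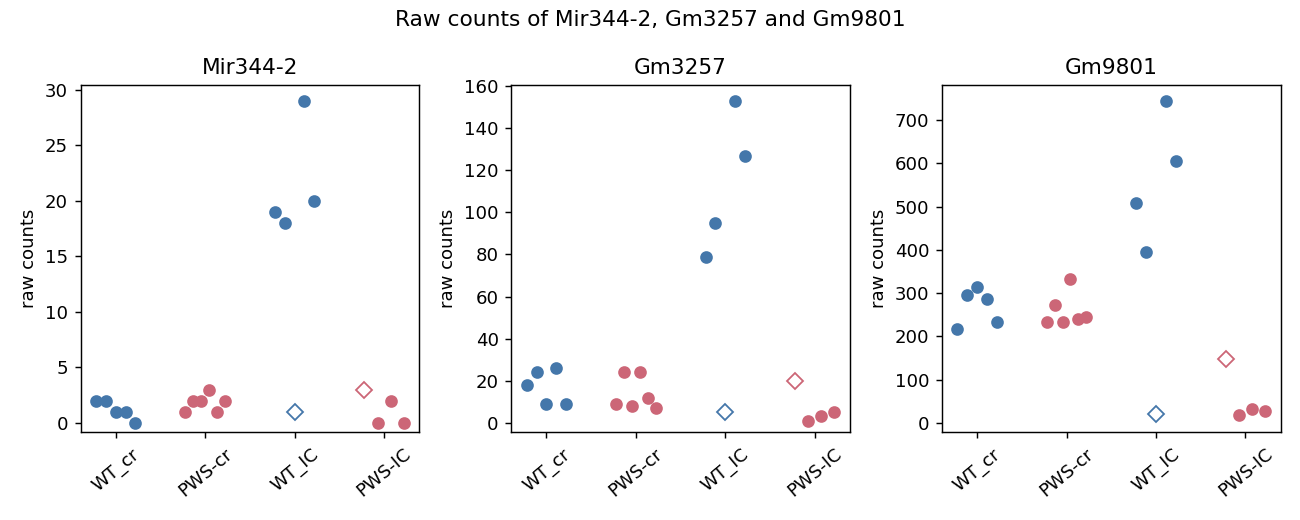
Raw counts in each library of Mir344-2, of Gm3257, which lies within the bounds of the same host, and of the more distant Gm9801, with WT in blue, mutants in red and open diamonds for 1_3_IC and 1_7_IC. The 4 filled WT points of the PWS-IC series, at 18 to 29 counts of Mir344-2, lie above all 11 points of the PWS-cr series, at 0 to 3.

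The other 12 *Mir344* entries had low counts. *Mir344c*, in an intron of *A230057D06Rik*, had 4 to 10 counts in the 4 WT and 0 to 2 in the 3 PWS-IC libraries, with 3 to 14 in WT and 8 to 15 in mutants of the PWS-cr series. *Mir344i* had 2 to 11 and 0 counts in the PWS-IC series and 0 to 3 counts in the PWS-cr series. *Mir344f* had 2 to 6 and 0 to 1, and *Mir344*, whose mature arms equal those of *Mir344-2*, had 1 to 3 and 0. *Mir344g* had 0 counts in all of these libraries. The other 7 held at most 5 counts in any of them. Between the series, the WT ratio was 9.52 (1.28 to 422) for *Mir344*, from 8 counts against 1, and 7.14 (2.74 to 23.6) for *Mir344i*, both with intervals that overlap that of *Mir344-2*. For *Mir344f* it was 1.78 (0.750 to 4.44) and for *Mir344c* 0.747 (0.444 to 1.24).

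Of the 34 other entries between *Snrpn* and *Ndn*, 7 passed the filter in the 7 PWS-IC libraries. edgeR called 6 of them lower. *Gm44644*, *Gm44643*, *Gm38451* and *Gm3257* passed only through their WT libraries, and with 3 PWS-IC libraries an entry counted in PWS-IC alone could not pass, so this count is given as a description. *B230209E15Rik*, whose start window is shown above, had 1109 to 1337 counts in WT and 7 to 10 in PWS-IC (log2 fold change -7.21, SE 0.139). *Gm44644*, a long noncoding RNA on the *Snrpn* side of *A230006K03Rik*, had 258 to 277 and 2 (-7.00, SE 0.240). *Gm44643* had 15 to 27 and 0 (fitted value -7.32, SE 0.771, which depends on the prior count). *Gm38451*, which shares exon bases with *A230006K03Rik*, had 85 to 161 and 1 to 5 (-5.38, SE 0.402). *Gm3257* (-5.34, SE 0.287) and *Gm9801* (-4.54, SE 0.165) were nearest to *Ndn*. The exception was *Gm10297*, a processed pseudogene, with 33 to 43 and 30 to 44 counts (-0.13, SE 0.194, adjusted p = 0.792). In PWS-cr 11 of the 34 were tested and 0 were called (log2 fold changes -0.60 to 0.41). In the fit over 18 libraries of both series, 11 were tested and edgeR called 9 lower in PWS-IC than in PWS-cr. Of all 23574 genes in that fit, 0.14% were called lower. Those 9 include *Gm3198*, *Gm7394* and *Gm23873*, which failed the filter in the 7 PWS-IC libraries and passed it in the PWS-cr series.

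**Figure D4:**
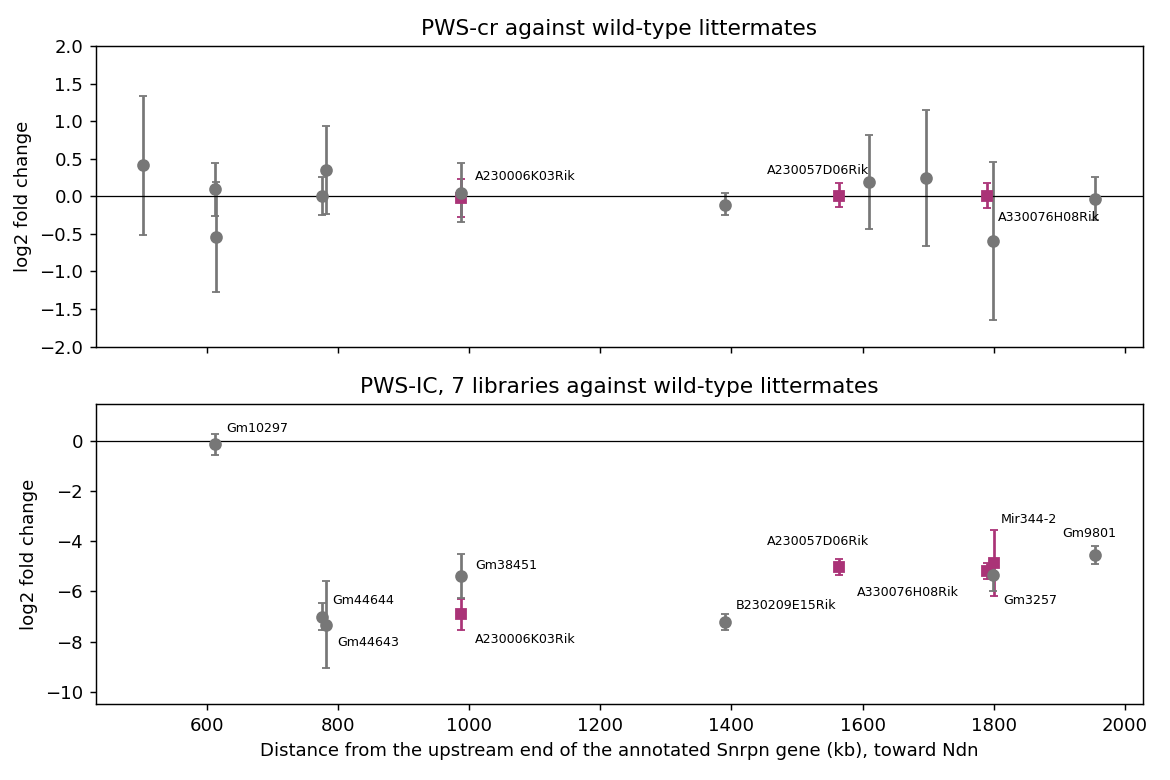
Log2 fold change with its 95% interval for each tested entry between Snrpn and Ndn against its distance in kb from the upstream end of Snrpn, in PWS-cr and in the 7 PWS-IC libraries, with the 4 transcripts as purple squares. In PWS-IC all but Gm10297 lie between -7.32 and -4.54, and in PWS-cr every interval includes 0.

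Protein-coding and other paternally expressed genes of the interval were also lower in the 7 PWS-IC libraries. Of 7 listed, 6 were tested, and 6 fell (log2 fold changes -5.27 to -3.10, median -4.54). *Snrpn*, which codes for a splicing protein, was at 2.59% of the WT level (2.15% to 3.12%). *Ndn*, which codes for the growth suppressor necdin, was at 3.10% (2.75% to 3.49%), *Magel2* at 4.22% (3.34% to 5.35%) and *Mkrn3* at 4.37% (3.64% to 5.24%). *Snhg14*, the host RNA of the *Snord116* copies, was at 11.7% (9.70% to 14.1%) and *Peg12* at 6.32% (4.58% to 8.73%), both above the intervals of the 3 long transcripts. Of the 2 maternally expressed and 9 flanking genes, 0 were called. In PWS-cr, *Snhg14* fell to 31.5% of WT (28.5% to 34.8%, edgeR adjusted p = 2.36e-06). None of the other 5 tested paternally expressed genes was called by edgeR. The edgeR value of *Ndn* was 0.75 on the log2 scale (SE 0.0948, adjusted p = 0.0621), or 168% of WT (145% to 194%). Its 6 PWS-cr libraries, at 393 to 482 CPM, lay above the 5 WT libraries, at 211 to 359 CPM. The paper, which used DESeq2, reports *Ndn* as significantly upregulated in PWS-cr. The reason for the different calls was not tested.

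Levels between genes were compared per kilobase of exon, in the deposited FPKM (fragments scaled to exon length and library total). In the 4 WT libraries of the PWS-IC series *A230057D06Rik* ranged from 3.01 to 4.71 FPKM, *A230006K03Rik* from 2.59 to 4.08 FPKM and *A330076H08Rik* from 2.43 to 3.79 FPKM, so the ranges overlapped. In the 5 WT libraries of the PWS-cr series *A230057D06Rik*, at 3.76 to 4.6 FPKM, lay above *A230006K03Rik*, at 2.51 to 3.71 FPKM, and *A330076H08Rik*, at 2.39 to 2.75 FPKM. *Snrpn* had 112 to 139 FPKM there. The level of *Mir344-2* per kilobase is not compared, since 80 bases hold too few counts. The ratio of *A230057D06Rik* to *A330076H08Rik* counts ran from 3.16 to 3.76 in WT of the PWS-IC series and from 4.02 to 4.63 in WT of the PWS-cr series, without overlap. How many other pairs of genes separate the series in this way was not counted, so this is not shown to be particular to them.

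The library labelled 1_3_IC was neither like WT nor like the other PWS-IC libraries for these transcripts. Relative to the median of the 4 WT libraries, it had 32.9% of *A230006K03Rik* (1.74 CPM), 43.7% of *A230057D06Rik* (22 CPM), 38.9% of *A330076H08Rik* (5.36 CPM) and 17.8% of *Mir344-2* (3 counts). *B230209E15Rik* stood at 56.4%, *Gm44644* at 44.9% and *Gm9801* at 30.9%. Of the paternally expressed genes, *Snrpn* stood at 155%, *Ndn* at 179%, *Mkrn3* at 164% and *Peg12* at 135%, while *Magel2* stood at 58.8% and *Snhg14* at 37.2%. The maternally expressed *Ube3a* stood at 59.3% and the flanking *Herc2* at 51.4%. Over genes with at least 1 CPM in WT, the median in 1_3_IC was 148% for 2383 genes under 2 kb of exon and 74.8% for 2714 genes of 8 kb or more. In the other 8 libraries of the series these medians lay between 94.6% and 108% and between 93.5% and 103%. The median of 360 lincRNAs (long intergenic noncoding RNAs) in 1_3_IC was 75.9% (quartiles 55.3% and 106%), and the 3 long transcripts lay below the lower quartile. The part of this shift in their values was not tested. The library labelled 1_7_IC had 0.923%, 1.84% and 2.13% of the WT median for *A230006K03Rik*, *A230057D06Rik* and *A330076H08Rik*.

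**Figure D5:**
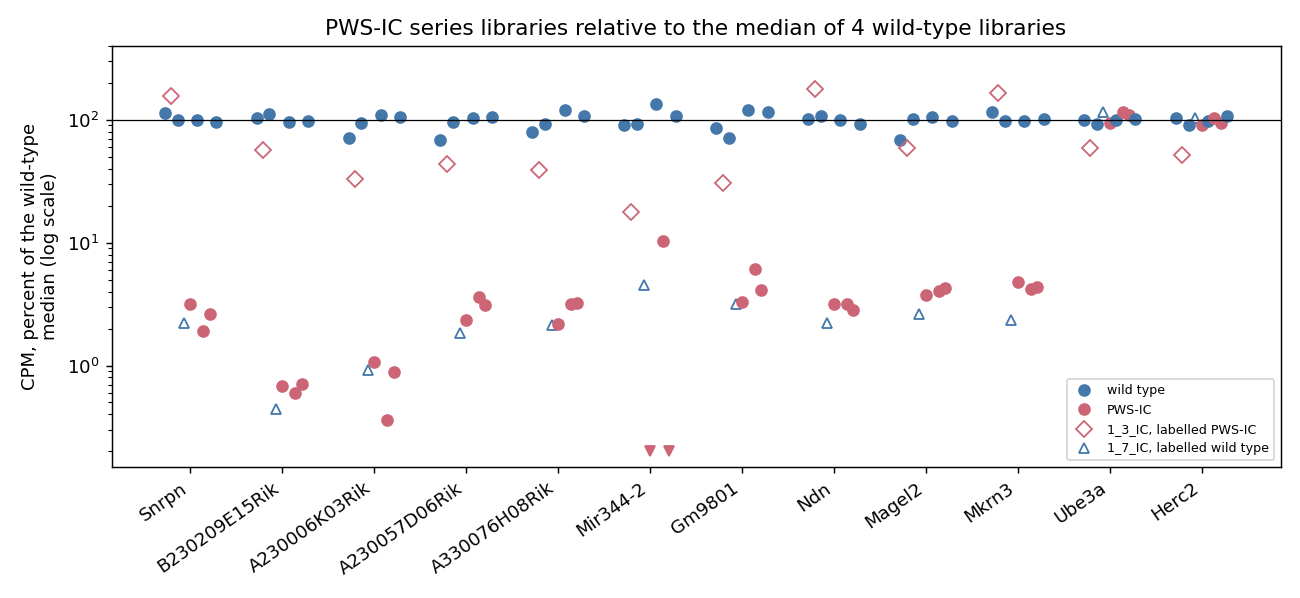
CPM by library in the PWS-IC series, as a percent of the median of 4 WT libraries, on a log axis, with filled triangles at the bottom for 0 counts. The open diamonds of 1_3_IC lie between WT and PWS-IC for the 4 transcripts (17.8% to 43.7%) but above WT for Snrpn, Ndn and Mkrn3, and the open triangles of 1_7_IC lie near the PWS-IC libraries for every paternally expressed gene shown.

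The genes most like each transcript across the libraries of a series were ranked by Pearson's r of log2 CPM, as a description. Libraries of a series share litters and, in PWS-IC, the split by genotype. The highest values were picked from 22172 genes over 11 PWS-cr series libraries and 22367 over 9 PWS-IC series libraries. With so few libraries and so many genes, a high r can arise by chance, which was not tested. Over the 9 PWS-IC series libraries, *A230057D06Rik* was most like *A330076H08Rik* (r = 0.998), *Magel2* (0.998) and *Gm44644* (0.996), and *A330076H08Rik* was most like *A230057D06Rik* (0.998), *Gm44644* (0.995) and *Magel2* (0.995). *A230006K03Rik* was most like *A230103L15Rik* (0.995), *Gm44644* (0.994) and *Gm44562* (0.993). *Mir344-2* was most like *Slc22a8* (0.990), *Gm38393* (0.974) and its neighbour *Gm3257* (0.972). Over the 11 PWS-cr series libraries other genes ranked highest. These were *Gm43788*, *Rnpc3* and *Gm37305* for *A230006K03Rik* (0.961 to 0.927), *Gm45114*, *Adarb2* and *Snx29* for *A230057D06Rik* (0.921 to 0.916) and *Htr1f*, *Kbtbd12* and *Gm47113* for *A330076H08Rik* (0.928 to 0.896).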

How the data were processed

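Whole-brain polyadenylated RNA from 20 libraries was analysed, and 2 labelled libraries without a column were not analysed here. Per the labels and the study's methods, the authors used STAR to align unstranded paired reads to mm10 and featureCounts to count by gene, and set aside 1 library per series after clustering. The versions are not given in the sources used here. The deposited tables hold raw counts, which were tested here, and FPKM, by which the authors scaled counts for gene length and library size. Size-factor-scaled counts, TPM and the authors' DESeq2 columns were left aside.

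Each series was tested separately by the quasi-likelihood test of edgeR 4.0.16 under R 4.3.3, after TMM scaling, in a model of genotype and litter. Genes entered where 4 or more libraries had 10 or more counts, and a call required an adjusted p (Benjamini-Hochberg) under 0.05. A joint fit of both series, with litter terms and a genotype effect within each series, tested the difference of the genotype effects. The paper kept the models apart, since by its account their wild-type littermates differed too much for pooling. Alternatives were DESeq2 1.42.0, RLE scaling, no filter, no litter term, labelled sex, the robust option and leaving out each library. The fits were tested on simulated data. Intervals of ratios of pooled counts are exact binomial and cover counting error only. GENCODE vM21 gave positions and exon lengths, which equal those behind the deposited FPKM for the 4 transcripts. RefSeq sequences (GRCm38.p6, the mm10 build) held 3 of the 4 in the promoter table and 1 in the microRNA table.

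The 4 transcripts, the gene lists, the markers and the 7-library grouping were chosen with earlier results of these data known. Named besides the 4 were neighbouring imprinted genes and the 3 genes most like each transcript. Every other entry between *Snrpn* and *Ndn* that edgeR called under the main settings above was also named. The other *Mir344* entries were named or given together. *B230209E15Rik* and *Gm29729* were compared at their starts, and *Gm10297* and *Herc2* given, after their values were seen. *Snurf* was listed but not tested, and it had 0 counts in every library of the PWS-IC series.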

Additional observations from a re-analysis of the deposited data

Results flagged for a closer look

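*A230006K03Rik*, *A230057D06Rik* and *A330076H08Rik* were far higher in 1_3_IC than in the other 3 libraries labelled PWS-IC, at 1.74, 22 and 5.36 CPM. By Dixon's gap rule at the 95% level, 1_3_IC stood apart in each. *A230057D06Rik* in the WT library 3_6_Cr, at 42.8 CPM, stood below the other 4 WT libraries of the PWS-cr series by the same rule. Of 16 sets examined, each 1 transcript in 1 group of libraries, 4 had such a library. The sets share libraries, and 3 of the 4 flagged values come from 1_3_IC. They are not separate trials, so a chance rate of 1 in 20 does not apply to their number.

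The genotype effect differed between PWS-IC and PWS-cr over 18 libraries for *A230006K03Rik* (-6.88 on the log2 scale), *A230057D06Rik* (-5.02) and *A330076H08Rik* (-5.19), by the edgeR test of the difference itself, and over the 20 libraries as labelled it was not called for any of the 4.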

How the results depend on the processing

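Over the 7 PWS-IC libraries, *A230006K03Rik*, *A230057D06Rik* and *A330076H08Rik* kept their call and direction under every alternative that gave a value. Leaving out 1 library gave log2 fold changes of -7.28 to -6.56 for *A230006K03Rik* (3 fits, since without a WT library it failed the filter), -5.09 to -4.93 for *A230057D06Rik*, -5.25 to -5.14 for *A330076H08Rik* and -7.47 to -4.20 for *Mir344-2* (3 fits), where the lowest was without 4_4_IC, the library with its 2 counts. The number of genes called was 53, and 28 to 55 with 1 library left out, with 28 without 4_3_IC and 31 without 4_6_IC. It was 223 in DESeq2, 174 with sex in the model and 978 with no filter, where the prior degrees of freedom of edgeR became infinite against 6.95 with the filter.

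Over the 9 libraries as labelled, no filter made all 4 called (log2 fold changes -3.26 for *A230006K03Rik*, -2.68 for *A230057D06Rik*, -2.86 for *A330076H08Rik* and -3.65 for *Mir344-2*), with 471 genes called, again with infinite prior degrees of freedom. DESeq2 called 1 gene. Leaving out 1 library gave -6.75 to -2.71, -4.82 to -2.15, -5.02 to -2.38 and, in 5 fits, -4.75 to -3.07, with 0 to 1 genes called. The lowest values were those without 1_3_IC (edgeR adjusted p = 0.276 for the 3 long transcripts), and the 1 gene was called without 1_7_IC.

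In PWS-cr the values lay near 0 and their sign turned. Leaving out 1 library gave -0.19 to 0.06 for *A230006K03Rik*, -0.02 to 0.05 for *A230057D06Rik* and -0.04 to 0.04 for *A330076H08Rik*, and *A230006K03Rik* was at 0.03 without the litter term. None was called under any alternative. Genes called numbered 3, and 2 to 4 with 1 library left out, 7 in DESeq2 and 10 with no filter.

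For the difference of the models over 20 libraries, no filter gave calls for *A230006K03Rik* (-3.23), *A230057D06Rik* (-2.71) and *A330076H08Rik* (-2.87), with 87 genes called, and DESeq2 called 3 genes. Over 18 libraries *Mir344-2* was called with no filter (-5.13) and without the litter term (-5.37), and 477 genes were called with no filter. The other causes were not tested. No paired analysis was possible because mutants and WT littermates were not matched individually, and litter is already a term of the model.

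At these depths a library with 0 to 3 counts, as for *Mir344-2* in the PWS-cr series, cannot show a change between genotypes of the size of its counting error. The split of reads between near-identical *Mir344* hairpins is uncertain. Genotype and sex are nearly the same split in the PWS-IC series.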
